A study of Mus musculus with 12 samples.

Results

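The genes described here are 3 forkhead transcription factors of the FOXO class (Foxo1, Foxo3 and Foxo4) and 6 ubiquitin ligase genes tied to muscle wasting: Trim63, Trim54 and Trim55 of the muscle RING-finger family, and the F-box genes Fbxo32, Fbxo30 and Fbxo40. All gene probes whose name on the array equals one of these symbols were taken, the older name Foxo3a being counted as Foxo3. This gave 14 probes for 9 genes, out of 41174 gene probes. Of the 14, 13 were kept because at least 6 of the 12 arrays showed them well above background, and each of the 9 genes had at least 1 kept probe. The 9 genes are among 16531 genes and unnamed probes that were tested.

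Quadriceps RNA of 12 mice was hybridised to single-colour Agilent arrays. All 12 were C57BL/6J males aged 13 weeks, with no allele or agent named in the labels. The exercised group held 6 mice that had run regularly on a motorised treadmill over 4 weeks, and their muscle was taken 3 hours after the last bout. The sedentary group held 6 mice that did not train. Acute effects of the final run and lasting effects of 4 weeks of training cannot be told apart in this design, and the labels give neither a clock time nor the feeding state. Each array carries a different mouse, and the 6 arrays of a group limit the precision of every value below.

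FOXO proteins bind DNA and switch on genes of stress resistance, fuel choice and protein breakdown. Insulin and growth factor signals through the kinase Akt phosphorylate them and keep them out of the nucleus, so their activity is set largely after the mRNA is made. In skeletal muscle they are best known for raising Trim63 (MuRF1) and Fbxo32 (atrogin-1 or MAFbx), which encode E3 ligases, the enzymes that mark proteins with ubiquitin for the proteasome. Both genes rise in fasting, denervation and glucocorticoid treatment.

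The promoters of Trim63 and Foxo1 are shown because these are the genes with a called change, and because the Trim63 promoter holds a match to a FOXO motif. The sequences are from RefSeq (GRCm38.p6), 250 bases before to 50 after the annotated start, 5′ to 3′ on the gene's strand. An entry matched 6 of the 9 genes, with 7 promoters between them. Capitals mark matches to the motifs searched on both strands. These were the FOXO motif GTAAACA, the insulin response motif CAAAACAA, the glucocorticoid receptor hexamer AGAACA, the glucocorticoid palindrome GNACANNNTGTNC, the cAMP response motif TGACGTCA, the clock E-box CACGTG and the myogenic E-box CAGCTG.
Trim63, chr4:134314870-134315169, plus strand: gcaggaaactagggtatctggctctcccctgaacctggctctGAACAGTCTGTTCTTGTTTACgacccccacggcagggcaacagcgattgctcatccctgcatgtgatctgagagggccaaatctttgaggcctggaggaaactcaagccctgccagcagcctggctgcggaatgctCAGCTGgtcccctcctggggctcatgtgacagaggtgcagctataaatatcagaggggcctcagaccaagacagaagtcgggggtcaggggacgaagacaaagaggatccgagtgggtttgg
Foxo1, chr3:52268087-52268386, plus strand: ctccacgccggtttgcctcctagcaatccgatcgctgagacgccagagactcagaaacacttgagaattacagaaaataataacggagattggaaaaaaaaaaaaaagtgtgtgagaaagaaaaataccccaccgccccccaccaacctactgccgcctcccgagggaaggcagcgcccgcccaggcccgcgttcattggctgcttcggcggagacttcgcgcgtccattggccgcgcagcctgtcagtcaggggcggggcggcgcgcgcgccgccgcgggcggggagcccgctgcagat
In the Trim63 promoter the palindrome runs from base -208 to base -196 before the start, and the FOXO motif lies on the other strand from base -194 to base -188. A hexamer match from -200 to -195 overlaps the palindrome, and a myogenic E-box lies from -72 to -67. Of 32851 promoters of the same length, 3.65% hold the FOXO motif and 0.475% the palindrome. Both are present in 5 of them, and the Trim63 promoter is the 1 in which they lie at most 5 bases apart. That limit was chosen after the sequence had been seen. A joined glucocorticoid and FOXO element has been described in this promoter, which is background and not a result of these arrays. None of the 7 motifs is in the Foxo1 window. Among the other promoters matched, those of Trim54 and Fbxo40 hold hexamers or myogenic E-boxes, which are found in 19% and 16.3% of all promoters, and those of Foxo3 and Fbxo30 hold none of the motifs. A match of letters is a description and does not show that a factor binds there.

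In exercised muscle 2 of the 9 genes rose, none fell and 7 did not pass the test. The genes that rose were Foxo1 and Trim63. Over all genes tested, 3.64% were called in either direction, 1.8% as higher and 1.84% as lower in exercised muscle. The call is an adjusted p below 0.05 in limma, with Benjamini-Hochberg adjustment over all 16531 genes and unnamed probes. The median log2 difference, exercised minus sedentary, was 0.17 over the 9 genes and -0.03 over all genes tested. The 12 arrays lay on 3 slides, and slide 1 held 1 exercised and 3 sedentary arrays, slide 2 held 3 and 1, and slide 3 held 2 and 2. With slide as a block Foxo1 alone of the 9 was called, where 2.11% of all genes were.

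**Figure D1:**
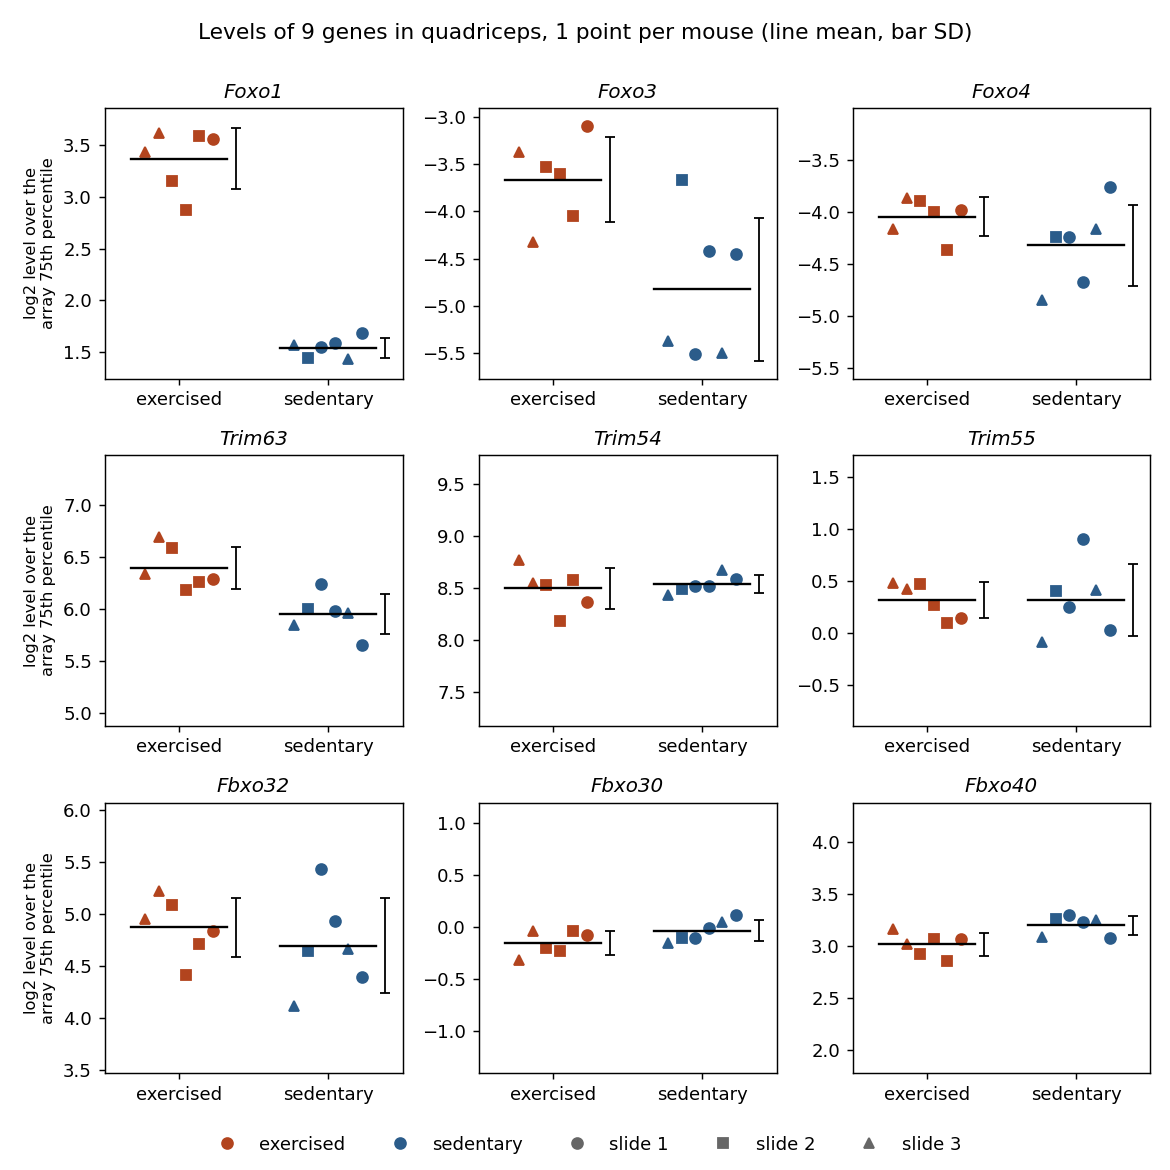
Level of each of the 9 genes in each mouse, as log2 signal over the 75th percentile of its array (y axis, with its own offset in each panel), exercised at the left and sedentary at the right of each panel. Points are mice, shapes are slides, the line is the group mean and the bar is 1 SD with n = 6. The groups are fully apart for Foxo1, and overlap for the other 8 genes.

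Foxo1 had the clearest difference. Its log2 levels over the array's 75th percentile ran from 2.87 through a median of 3.49 to 3.61 in exercised muscle, against 1.43, 1.56 and 1.69 in sedentary muscle. Every exercised mouse lay above every sedentary mouse, and 3.01% of all genes tested showed such a separation in either direction. The difference was 1.82 on the log2 scale, a 3.53-fold higher level (95% interval 2.94 to 4.24, n = 6 and 6, limma adjusted p = 2.83e-05). By p-value Foxo1 ranked 1 among all genes tested, and by size of rise it ranked 22. The gene's lowest exercised value, in exercised mouse 4, was still 1.18 log2 units above the highest sedentary value. Spread was wider among exercised mice (SD 0.30) than among sedentary mice (SD 0.10).

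Foxo1 is read by 2 probes that start 3106 bases apart, at chr3:52150183-52150242 and chr3:52153289-52153348 on the plus strand of build mm9. The exon or UTR they lie in was not looked up, since the positions are given on another build than the gene table. The first, used for the gene, is the 60-base oligonucleotide below, and it is shown because the clearest difference among the 9 genes rests on it.
Foxo1 probe: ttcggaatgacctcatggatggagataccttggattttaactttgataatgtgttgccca
The second probe gave a 3.68-fold higher level in exercised muscle (limma adjusted p = 0.000326, over 22919 kept probes), where 3.31% of all kept probes were called. Its log2 levels were 2.36, 3.26 and 3.55 (lowest, median and highest) in exercised muscle, against 1.01, 1.13 and 1.34 in sedentary muscle, and these groups did not overlap either. Once each mouse was set against its own group mean, both probes moved together over the 12 arrays (Pearson r = 0.92). They share the RNA sample and the array, so this is no independent replicate.

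The size of the Foxo1 difference was alike on the 3 slides, at 1.94 on slide 1, 1.76 on slide 2 and 2.02 on slide 3. With slide as a block the adjusted p was 0.000202. Leaving out each mouse in turn gave differences between 1.77 and 1.92, all called.

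Foxo3, a factor known from mouse muscle for driving both ligase and autophagy genes, could be judged only on dim probes. Its kept probe at chr10:41900547-41900606 (minus strand, mm9) targets a cDNA clone and not the RefSeq transcript, and was well above background in 6 of 6 exercised and 3 of 6 sedentary mice. Whether this probe reads Foxo3 mRNA was not checked, so the values below are those of the probe. The exercised arrays alone met the filter of 6 arrays. Log2 levels were -4.32, -3.57 and -3.10 in exercised muscle, against -5.51, -4.91 and -3.67 in sedentary muscle. Of the exercised mice, 4 lay above all sedentary ones, so the groups overlapped. The difference was 1.16 on the log2 scale (2.23-fold, 1.37 to 3.63), which did not pass (limma adjusted p = 0.0731). Of the sedentary values behind this fold, 3 of 6 were not well above background. With a normexp correction whose local background was capped at the spot's own signal, the difference was 0.12. Without that correction it was 1.69 on slide 1, -0.06 on slide 2 and 1.59 on slide 3. The single sedentary mouse on slide 2 had the highest sedentary level, and without it the difference was 1.39 (limma adjusted p = 0.0214). Of the 12 fits with 1 mouse left out, this was the only 1 that passed (limma adjusted p up to 0.156). The probe for the RefSeq transcript of Foxo3 was well above background on 0 of 12 arrays, so no fold is given for it.

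Foxo4 was dim as well, with its probe at chrX:98454216-98454275 (plus strand, mm9) well above background in 5 of 6 exercised and 2 of 6 sedentary mice. The log2 levels were -4.36, -3.99 and -3.86 in exercised muscle, against -4.84, -4.24 and -3.76 in sedentary muscle, and they overlapped. A difference of 0.28 (1.21-fold, 0.947 to 1.55) did not pass the test (limma adjusted p = 0.461). It was -0.03 with the capped normexp correction.

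Trim63 encodes MuRF1, a ligase that targets thick filament proteins of the sarcomere, and its probe lies at chr4:133885025-133885084 (plus strand, mm9). Its log2 levels were 6.19, 6.31 and 6.70 in exercised muscle, against 5.66, 5.97 and 6.24 in sedentary muscle. In 5 of 6 exercised mice the level was above that of every sedentary mouse, so the groups overlapped by 1 exercised mouse. The difference of 0.44 on the log2 scale, or 1.36-fold (1.15 to 1.61), passed narrowly (limma adjusted p = 0.0475). All 3 slides gave a positive value, 0.33, 0.34 and 0.61, yet with slide as a block the call was lost (adjusted p = 0.126). Leaving out 1 mouse in turn gave 0.38 to 0.50, and the call held in 2 of these 12 fits (adjusted p 0.0319 to 0.101). The difference was positive in each fit run.

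**Figure D2:**
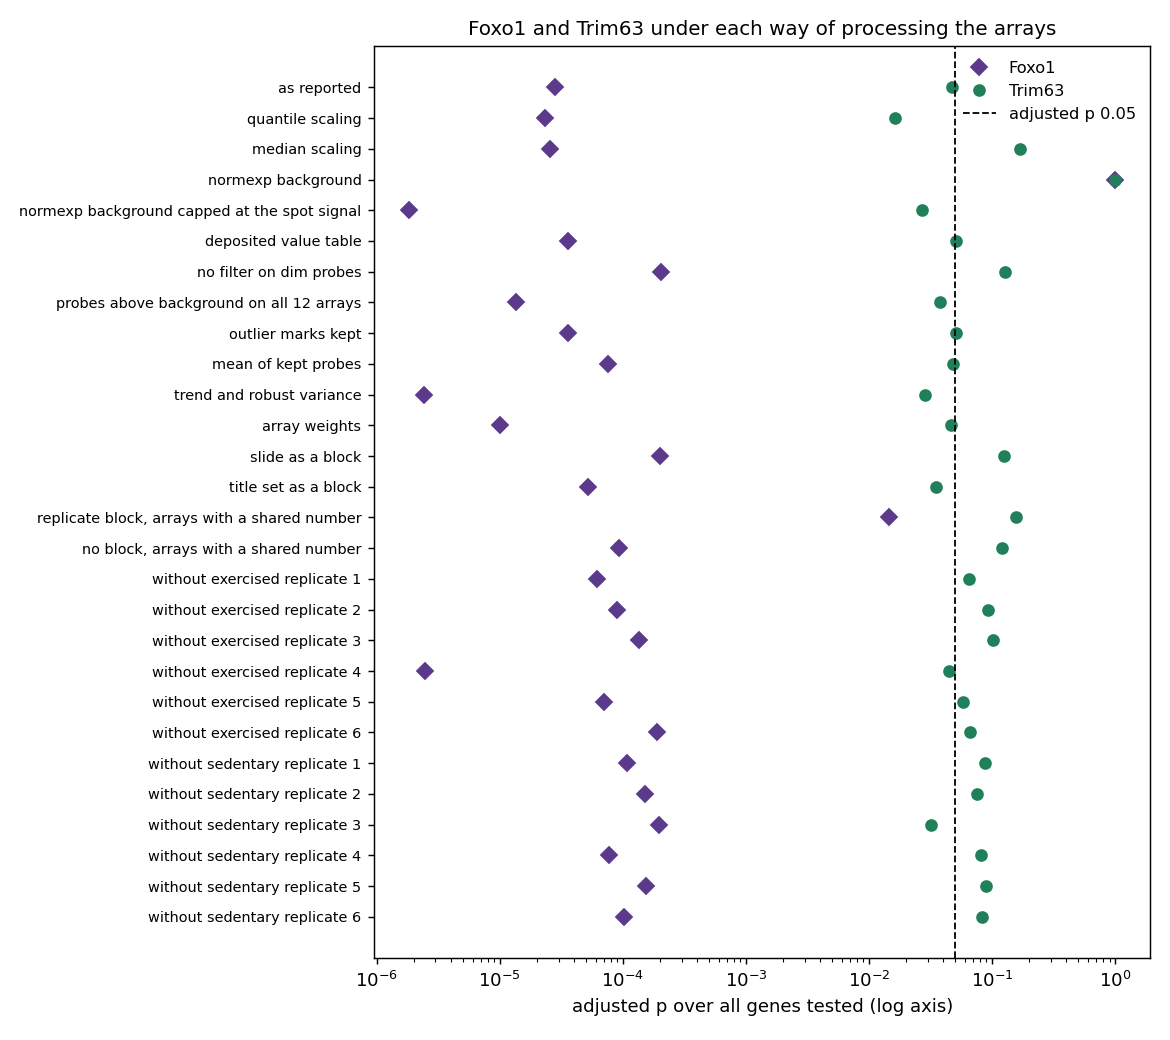
Adjusted p (x axis, log scale) of Foxo1 and Trim63 under the processing as reported and 27 other settings (rows), with the threshold of 0.05 as a dashed line. Foxo1 is left of the line in 26 of the 27 settings and Trim63 in 9.

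The other muscle RING-finger genes showed no called difference. Their probes lie at chr5:31439943-31440002 for Trim54 and chr3:19544483-19544542 for Trim55 (plus strand, mm9). Trim54 (MuRF3), which binds microtubules and stabilises them, had log2 levels of 8.19, 8.54 and 8.77 in exercised muscle, against 8.43, 8.52 and 8.68 in sedentary muscle. The groups overlapped throughout, and the difference was -0.04 (0.972-fold, 0.848 to 1.11, limma adjusted p = 0.878). Trim55 (MuRF2), a titin-binding protein of the sarcomere, had log2 levels of 0.09, 0.35 and 0.48 in exercised muscle. In sedentary muscle they were -0.09, 0.32 and 0.90. One sedentary mouse had the highest value of all 12, and the means of both groups were nearly equal, with a ratio of 0.998 (0.798 to 1.25, limma adjusted p = 0.997).

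Fbxo32, the other classic wasting ligase, targets the muscle regulator MyoD and the translation factor eIF3f, and its probe lies at chr15:58011752-58011811 (minus strand, mm9). Log2 levels were 4.42, 4.90 and 5.23 in exercised muscle, against 4.12, 4.65 and 5.43 in sedentary muscle. Sedentary mice spread over 1.32 log2 units and held both the lowest and the highest value. The difference of 0.17 (1.13-fold, 0.835 to 1.53) did not pass (limma adjusted p = 0.741). It differed by slide, at -0.09 on slide 1, 0.10 on slide 2 and 0.70 on slide 3.

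Fbxo30 encodes MUSA1, a ligase under the control of BMP signalling in denervated mouse muscle. The probe used, at chr10:11016601-11016660 (plus strand, mm9), had log2 levels of -0.32, -0.13 and -0.04 in exercised muscle, against -0.15, -0.06 and 0.12 in sedentary muscle. These ranges overlapped, and the difference was -0.12 (0.923-fold, 0.829 to 1.03, limma adjusted p = 0.487). Its 3 probes did not go the same way, as the others gave 0.17 and -0.06, neither called.

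Fbxo40 is a muscle ligase that targets the insulin receptor substrate IRS1. At its probe at chr16:36964623-36964682 (minus strand, mm9) log2 levels were 2.86, 3.04 and 3.16 in exercised muscle, against 3.08, 3.24 and 3.30 in sedentary muscle. All 6 exercised mice lay below the sedentary mean, with some overlap of the ranges. The difference of -0.18 (0.880-fold, 0.794 to 0.976) had an unadjusted p of 0.0194 and did not pass after adjustment (limma adjusted p = 0.187). The second probe, dimmer at mean log2 levels of -1.12 in exercised and -0.97 in sedentary muscle, gave -0.15. It did not pass (limma adjusted p = 0.621, over 22919 kept probes). Once each mouse was set against its own group mean, Pearson r between both probes was 0.18 over the 12 arrays.

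**Figure D3:**
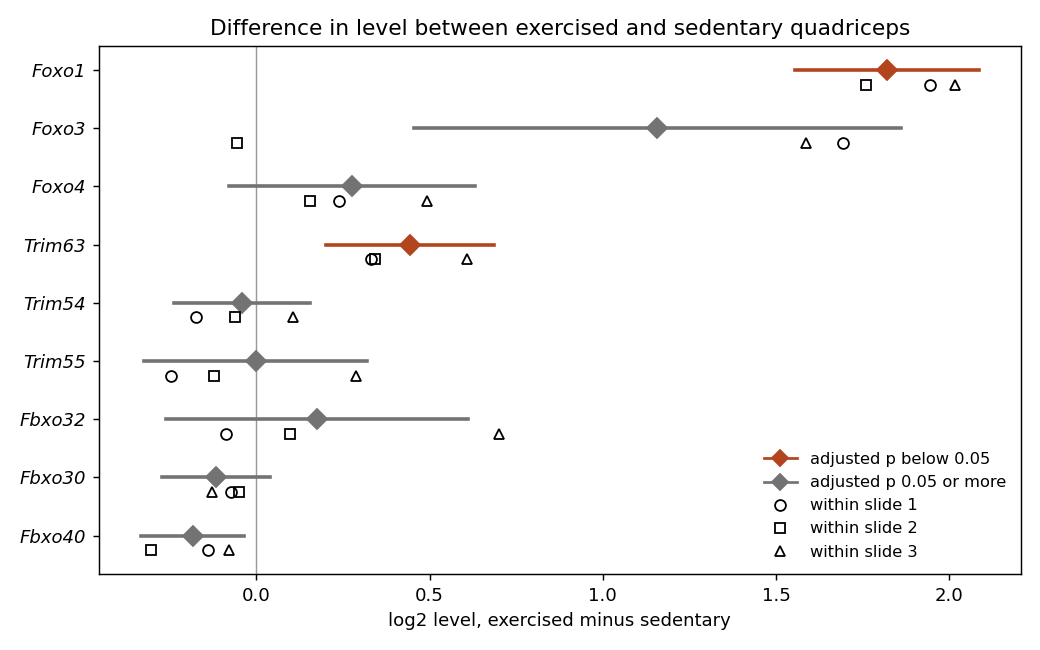
Log2 level, exercised minus sedentary (x axis), for the 9 genes (rows), with 95% intervals from limma and n = 6 and 6. Open symbols are the differences within each slide, and Foxo3 is the gene whose value on slide 2 (-0.06) lies far from those on slides 1 and 3 (1.69 and 1.59).

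Whether members of one family changed unequally was tested within arrays, as the log2 ratio of a pair of genes in each mouse, by a two-sided exact permutation test over 924 assignments and adjustment over 7 pairs. The Foxo4 probe was not well above background in 4 of 6 sedentary mice and the Foxo3 probe in 3 of 6, so ratios to them rest partly on signals not well above background. The ratio of Foxo1 to Foxo4 was 1.54 log2 units higher in exercised muscle, without overlap (exact p = 0.00216, the smallest the design can give, adjusted p = 0.0152). Foxo1 to Foxo3 differed by 0.66 (exact permutation, adjusted p = 0.126) and Foxo3 to Foxo4 by 0.88 (adjusted p = 0.0758), neither of which passed. With the capped normexp correction Foxo1 to Foxo3 was 1.62 and Foxo3 to Foxo4 was 0.15. Trim63 rose relative to Trim54 by 0.49 (exact permutation, adjusted p = 0.0227) and relative to Trim55 by 0.45 (adjusted p = 0.0303), the second of which held in 8 of 12 fits with 1 mouse left out (adjusted p up to 0.0505). These assignments ignore the slide. With slide means removed and the 96 assignments kept within slides, a test added after the data had been seen, none of the 7 pairs passed. Foxo1 to Foxo4 was then 1.60 with the smallest p this test can give (exact p = 0.0104, adjusted p = 0.0729). Such a p cannot pass adjustment over 7 pairs on its own, so the miss of this pair decides nothing. Trim63 to Trim54 was 0.47 (exact permutation, adjusted p = 0.0729) and Trim63 to Trim55 was 0.44 (adjusted p = 0.146). Against Fbxo32 the Trim63 ratio was higher by 0.27 and did not pass (exact permutation, adjusted p = 0.101), and the slides gave 0.42, 0.24 and -0.09. A call in Trim63 and none in Fbxo32 is thus not shown to be a difference between them. The ratio of Fbxo32 to Fbxo40 was 0.36 higher, also without passing (adjusted p = 0.101). Such ratios show unequal change and not which gene moved.

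Within groups Trim63 and Fbxo32 tended to vary together from mouse to mouse. After each mouse was set against its own group mean, Pearson r was 0.84 over the 12 arrays (two-sided permutation p = 0.00154 with 100000 resamples within groups). It was 0.91 over the 6 exercised mice and 0.84 over the 6 sedentary mice. Spearman's rho on ranks within groups was 0.89 (permutation p = 0.00116). This pair was 1 of 36 among the 9 genes, and adjusted over these the permutation p-values were 0.0554 for r and 0.0418 for rho. After adjustment r thus did not pass, and rho passed narrowly. Without the 2 mice farthest from the median of Trim63, r was 0.71. Slides hold 4 arrays each, too few for a value within slides, and both genes share the array and its scaling. For Foxo1 and Trim63 r was 0.08 over the 12 arrays, 0.28 over exercised and -0.54 over sedentary mice. For Foxo1 and Fbxo32 it was 0.23, with 0.54 over exercised and -0.17 over sedentary mice. Neither passed, and differences between correlations were not tested.

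**Figure D4:**
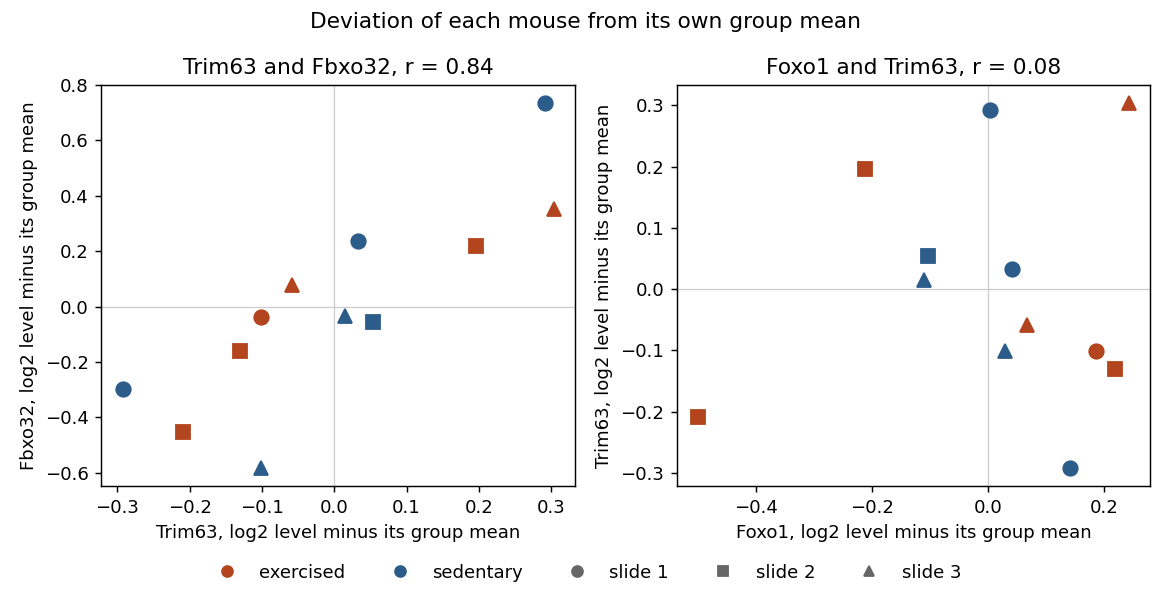
Each point is 1 mouse, placed by its log2 level minus the mean of its own group (both axes), for Trim63 and Fbxo32 at the left (r = 0.84) and for Foxo1 and Trim63 at the right (r = 0.08). Mice higher in Trim63 tended to be higher in Fbxo32 in both groups, though some mice near the means lay on opposite sides. The points for Foxo1 and Trim63 are scattered.

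The genes whose deviations were most like those of Foxo1, among 12234 genes well above background on all arrays, were Zfp708 (r = 0.92), Trappc8, Zdhhc16, Slc7a6os and Rabl6, down to r = 0.91. For Trim63 they were Zcrb1 (r = 0.91), Dnajc28, Atp5pb, Zfand5 and Reep5, down to r = 0.86. All of these were above the r of 0.84 between Trim63 and Fbxo32, so Fbxo32 was not the gene most like Trim63. None of these 10 genes was itself called between exercised and sedentary muscle. With 12 arrays and so many candidates, these are descriptions.

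Genes upstream of FOXO, such as those for insulin and growth factor receptors, Akt and other kinases, showed no called change in 39 of 39 tested. Of all genes tested 3.64% were called in either direction. Of 40 described FOXO targets and wasting-related genes tested, 5 were higher and 0 lower in exercised muscle, and 35 did not pass. The share higher was 12.5%, against 1.8% of all genes tested. The list was chosen with earlier results of these data known, so this share is no test of FOXO activity. The list's median difference was 0.06, against -0.03 over all genes tested. The strongest by p-value was Mt2, a metallothionein that binds metal ions, at 4.66-fold (3.48 to 6.23, limma adjusted p = 7.11e-05). Its sister Mt1 was 2.91-fold higher (2.24 to 3.79). Ppargc1a, the coactivator PGC-1α of mitochondrial genes, which in mouse muscle restrains FOXO-driven wasting, was 3.68-fold higher (2.70 to 5.04). Ddit4 (REDD1), an inhibitor of mTORC1, was 8.68-fold higher (4.86 to 15.5). The fifth, named after its value was seen, was the repressor gene Bcl6 at 1.38-fold (1.17 to 1.63, limma adjusted p = 0.0422), which did not pass with slide as a block (0.0536). These genes are known to answer to other signals as well.

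Of all genes tested 3.64% were called, against which the counts in the lists of the wider machinery are given. Other muscle ligases and their adaptors had 0 of 37 called, with a median of -0.05. Of 60 genes for ubiquitin, its conjugating enzymes and the proteasome, 0 were higher and 1 was lower, with a median of -0.02. That gene, Ube2d1, encodes a conjugating enzyme and was 0.771-fold (0.675 to 0.881, limma adjusted p = 0.036) of its sedentary level, which did not pass with slide as a block (0.108). Autophagy and lysosome genes had 0 of 38 called and a median of -0.02. Genes for described substrates of these ligases and for sarcomere partners had 0 of 26 called and a median of -0.07.

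**Figure D5:**
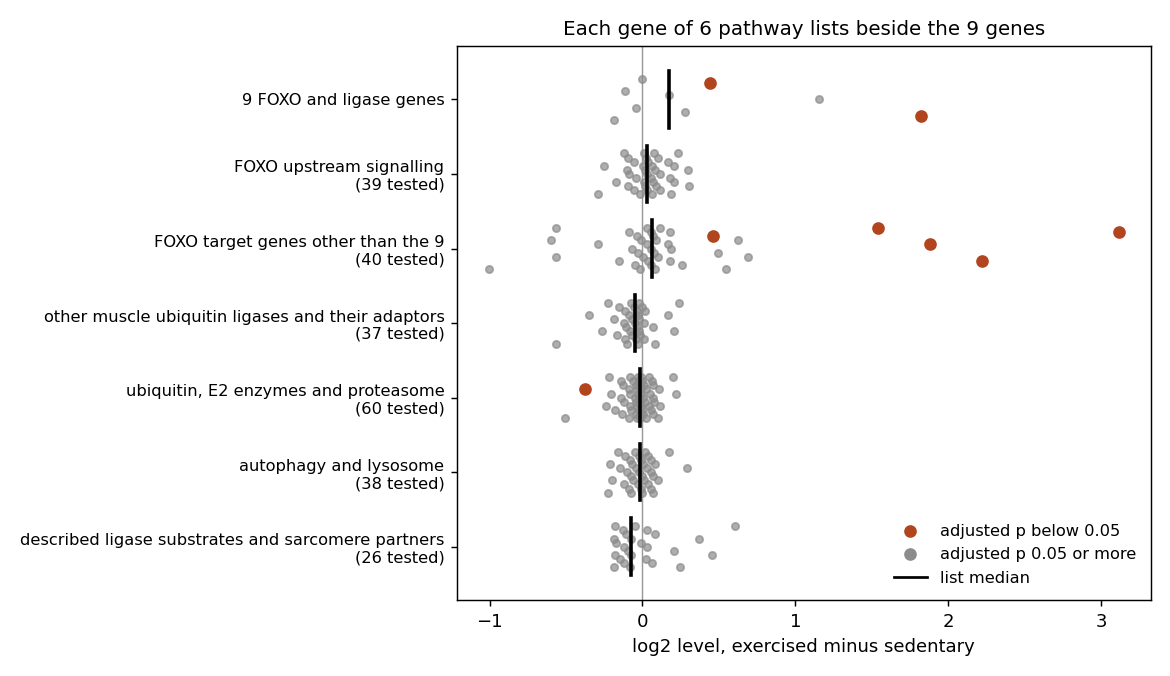
Log2 level, exercised minus sedentary (x axis), of each tested gene in 6 pathway lists and of the 9 genes (rows, 1 point per gene), with called genes larger and in colour. The called genes outside the 9 are 5 FOXO target and wasting-related genes on the right and Ube2d1 on the left.

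The tissue label was checked against 12 muscle fibre markers. All 12 were well above background on each of the 12 arrays, and 0 were called between groups. Their log2 levels were at least 8.30 over the array's 75th percentile in exercised and 8.60 in sedentary muscle. The difference was above 0 in 3 of these 12 markers, with a median of -0.14. Array quality measures overlapped between groups: 22420 to 24863 probes were well above background in exercised and 21728 to 25246 in sedentary muscle (exact permutation p = 0.805). In such bulk samples fewer cells of a type and less RNA per cell cannot be told apart. Foxo1 is also expressed in endothelial cells, so their markers are given beside it. Of 10 endothelial markers 0 were higher and 3 lower, against 1.84% of all genes lower (Cldn5, Kdr and Egfl7, named after their values were seen), and 1 of the 3 passed with slide as a block. The difference was above 0 in 1 of the 10, with a median of -0.26. The summed level of the list ran from 34.3 to 43.4 times the array's 75th percentile in exercised muscle. In sedentary muscle it ran from 45.0 to 56.2 times, so the sums did not overlap. How this bears on Foxo1 was not tested. Tendon markers were above 0 in 8 of 8, with a median of 0.92 and 0 called. Their sums ran from 63.5 to 162 in exercised and from 27.9 to 83.0 in sedentary muscle. White adipocyte sums overlapped (245 to 880, against 271 to 783), as did those for macrophages (62.1 to 94.1, against 42.4 to 107). White adipocyte markers were above 0 in 7 of 8, with a median of 0.36, and macrophage markers in 4 of 7, with a median of 0.06. Brown adipocyte markers had a median of 0.98, with 3 of 4 tested above 0 and 0 called, and sums of 172 to 300 in exercised and 200 to 277 in sedentary muscle. Schwann cell markers were above 0 in 7 of 7, with a median of 0.27, 0 called, and sums of 16.6 to 23.8 in exercised and 16.5 to 18.8 in sedentary muscle. Of 8 smooth muscle and pericyte markers 2 were higher and 1 lower, against 1.8% and 1.84% of all genes. With slide as a block 1 was higher and 1 lower, where 2.11% of all genes were called in either direction. Fibroblast, satellite cell and erythroid markers had 0 called. They were above 0 in 7 of 8, 0 of 5 and 3 of 3, with medians of 0.09, -0.15 and 0.33. Every list held markers well above background on all 12 arrays. Of the brown adipocyte and satellite cell markers, 1 each was not well above background on any array. The part of other cells in the differences of the 9 genes was not tested.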

How the data were processed

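Quadriceps RNA of 6 exercised and 6 sedentary mice was measured on single-colour arrays, 1 per mouse. Spot intensity in the deposited scanner files is linear. Agilent Feature Extraction was version 10.5.1.1 for 12 of 12 arrays per the file headers but 9.1 per the submitters' processing notes, and probe positions are on mm9 per the file headers. The processed signal was background-subtracted by the authors, per the file headers, with no scaling between arrays. In the values deposited as a table, 100% of the intensity values of single-spot probes lay within 0.1% of that signal, so it served as an alternative. Its scale is thus linear and uncentred, and how repeated spots were combined stays unknown.

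Outlier-marked spots were left out and spots of a probe averaged. No pseudocount was used: log2 of the signal minus each array's 75th percentile was taken. Probes well above background on at least 6 of 12 arrays were kept, and the kept probe with the highest mean stood for each gene. The fit was limma 3.58.1 in R 4.3.3 (with version 1.17.8 of the package data.table) over all 16531 genes and unnamed probes, with Benjamini-Hochberg adjustment, and was tested on simulated data. Sums of marker lists include outlier-marked spots. The 9 genes, the lists and the tests were chosen with earlier results of these data known. Named genes are the 9, at most 4 called genes of each pathway list by smallest p, and the 5 genes most alike for Foxo1 and Trim63. Bcl6 and 3 endothelial markers fall outside this rule and were named after their values were seen. The titles place mice in sets 1 and 2 of unstated meaning, tested as an interaction. P-values measure the spread between arrays, 1 per mouse. In that spread mouse, hybridisation and, without slide as a block, slide are not told apart. Alternatives covered scaling, background, filters, probe choice, variance models, slides, sets and each mouse left out. The array's signal over background limits the values of Foxo3 and Foxo4.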

Additional observations from a re-analysis of the deposited data

Results flagged for a closer look

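Trim54 was set apart because its difference between exercised and sedentary muscle had opposite signs in the sets numbered 1 and 2 in the sample titles. It was 0.18 in set 1 and -0.18 in set 2, so that set 2 minus set 1 was -0.36. For Trim54 each exercised mouse of a set lay on the same side of that set's sedentary mean. The sign reversal was not particular to Trim54. Trim55 was 0.26 in set 1 and -0.20 in set 2, and its set 2 minus set 1 of -0.46 was larger in size. For Trim55, however, the exercised mice of set 2 lay on both sides of that set's sedentary mean. The interaction of group and set did not pass in limma for Trim54 (adjusted p = 0.569) or for Trim55 (adjusted p = 0.642). In the same limma fit 0 of 16531 genes passed, and 1445 had an unadjusted p below 0.05. What the sets stand for is not stated in the labels.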

How the results depend on the processing

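Foxo1 kept its direction in every setting and its call in 26 of 27 outside single slides, with differences from 1.58 to 2.01. Trim63 kept its direction in every setting (0.38 to 0.77 outside single slides), and its call in 9 of 27. The call was lost with median scaling (adjusted p = 0.168), the deposited table (0.0508), no filter on dim probes (0.127), outlier marks kept (0.0506) and slide as a block (0.126), which each left 1 of the 9 genes called. The genes called over the whole array numbered 601 as reported, 316 with no filter and 348 with slide as a block, and 418 to 572 with 1 mouse left out, which left 1 or 2 of the 9 called. Within single slides 0, 8 and 0 genes passed, with 1011, 970 and 2151 at an unadjusted p below 0.05, and 0 of the 9.

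Normexp as planned called 0 genes and 0 of the 9, with 107 at an unadjusted p below 0.05. Spots with a local background above 1000 occurred on 4 arrays, whose medians after this correction were 744 to 2289, against 72.6 to 82.5 on the other 8. With that background capped at the spot's signal, an alternative chosen after seeing the data, 501 genes and 2 of the 9 were called. Under the planned form the pair differences were 1.59 for Foxo1 to Foxo4 (adjusted p = 0.188), 0.56 for Trim63 to Trim54 (0.0909) and 0.79 for Trim63 to Trim55 (0.328). Foxo3 to Foxo4 was 0.06 (0.359) under the planned form and 0.15 (0.113) under the capped form, against 0.88 as reported. Under the capped form Foxo1 to Foxo3 was 1.62 and passed (0.00758). With assignments kept within slides, also chosen after seeing the data, Foxo1 to Foxo4 was 1.60, Trim63 to Trim54 0.47 and Trim63 to Trim55 0.44, none of which passed. On its own no pair could have passed that test after adjustment. With 1 mouse left out, exact permutation gave 0.71 to 1.09 for Foxo3 to Foxo4, 0.34 to 0.52 for Trim63 to Trim55, 0.27 to 0.49 for Fbxo32 to Fbxo40 and 0.18 to 0.37 for Trim63 to Fbxo32. Foxo3 to Foxo4 passed without exercised mouse 2 or sedentary mouse 2, Fbxo32 to Fbxo40 without sedentary mouse 3, and Trim63 to Fbxo32 without sedentary mouse 1. Trim63 to Trim55 missed without exercised mouse 3, 5 or 6 or sedentary mouse 4.

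Directions that turned were all of uncalled values. Trim54 was 0.044 with quantile scaling, 0.21 with normexp and 0.10 within slide 3. Trim55 was 0.00996 with array weights, 0.00554 with slide as a block and 0.29 within slide 3. With 1 mouse left out, Trim54 ranged from -0.095 to 0.020 and Trim55 from -0.083 to 0.114. Foxo4 was -0.0066 with normexp and -0.027 with its capped form, Fbxo40 0.0038 with normexp, Fbxo30 0.00031 with the mean of kept probes, Fbxo32 -0.088 within slide 1 and Foxo3 -0.057 within slide 2. The causes were not tested. The replicate block used the 8 arrays that share a title set and animal number with an array of the other group. Their deviations correlated at 0.18, -0.06, -0.02 and 0.36. The arrays of the pairs at 0.18 and 0.36 shared a slide, and those of the others did not. Pairing and slide thus cannot be told apart here, and whether the numbers pair the mice is not settled. With the replicate block 29 genes were called and 1 of the 9, and without it on the same arrays, chosen after seeing the data, 130 and 1. Trim54 was then 0.019 and Trim55 0.098.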
